A study of Homo sapiens with 12 samples.

Results

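The 39 genes described here encode glucose and lactate transporters, the enzymes of glycolysis, the kinases that hold back pyruvate oxidation, the glucose-responsive arrestins TXNIP and ARRDC4, and oxygen-sensing and hypoxia-linked proteins. They were chosen by name and not by a cutoff on a measured value, but with earlier results of these data known. All 39 were found among the 58347 genes of the count files. RNA-seq had been carried out on A375, an established human melanoma cell line with a mutant BRAF kinase, in 12 samples. For 8 h the cells received either DMSO (the vehicle), or tretinoin, or vemurafenib, or a combination of these 2 drugs, with 3 replicates per group. The labels list a dose of 5 µM for all 4 groups, the vehicle included, and do not say whether the combination held 5 µM of each drug. All groups were the same unmodified cell line, and the labels name no change in oxygen or glucose supply. They do not say whether the replicates came from separate cultures, so p-values measure the spread between these samples, which may be technical.

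Glycolysis turns glucose into pyruvate in the cytosol. Glucose enters through SLC2A carriers, hexokinases trap it as glucose phosphate, phosphofructokinase commits it to breakdown, and lactate dehydrogenase with the SLC16A carriers removes the end product as lactate. Pyruvate dehydrogenase kinases (PDK) decide how much pyruvate is oxidized in mitochondria, because they phosphorylate and switch off pyruvate dehydrogenase. Many of these genes are targets of hypoxia-inducible factor (HIF), whose alpha subunits are marked for destruction by the EGLN prolyl hydroxylases when oxygen is present. Vemurafenib inhibits mutant BRAF, the kinase upstream of MEK and ERK, a pathway known to favor glycolysis in BRAF-mutant melanoma. Tretinoin is all-trans retinoic acid, the ligand of the retinoic acid receptors.

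Total counts ranged from 13510235 to 21534377 per sample, and the range of each treated group overlapped that of DMSO. Tretinoin replicate 1 stood apart from its group, with a chi-square per degree of freedom of 19.13 and 21.82 against the other 2 tretinoin samples, while all other within-group pairs lay between 2.56 and 8.38. Mitochondrially encoded transcripts took 0.59 to 0.69% of the counts in DMSO, 0.96 to 1.49% in tretinoin, 1.09 to 1.11% in vemurafenib and 1.21 to 1.86% in the combination, and their part in the results was not tested. The drug labels were checked on known targets: DUSP6, a phosphatase induced by ERK, had 2077 to 2270 normalized counts in DMSO and 25.1 to 37.6 with vemurafenib, and DHRS3, a retinoid-induced reductase, had 332 to 437 in DMSO and 2555 to 2970 with tretinoin. All 3 ERK targets examined fell with vemurafenib, but of 3 retinoid targets only DHRS3 passed the test with tretinoin alone, and DHRS3 (log2 1.74, SE 0.09, adjusted p = 7.1e-11) and RARB (log2 2.80, SE 0.23, adjusted p = 1.5e-08) also rose with vemurafenib alone. Of 7 melanocyte-lineage genes, MITF (240 to 592) and S100B (110 to 187) were well counted, SOX10 was listed at 0 in all 12 samples, and PMEL, MLANA, TYR and DCT stayed below 27 normalized counts each. POLR2F overlaps 2.4% of the SOX10 exon bases, and why SOX10 was listed at 0 was not tested. MITF was higher with vemurafenib (log2 fold change 0.88, SE 0.10, adjusted p = 1.3e-06). The summed normalized count of 7 marker genes of blood, endothelial, fibroblast and epithelial cells was 134 to 236 in DMSO, 148 to 240 in tretinoin, 320 to 347 in vemurafenib and 229 to 296 in the combination. Of the 5 of these genes tested, VWF, PTPRC and COL1A1 rose with vemurafenib and PTPRC with tretinoin, and their part in the results was not tested.

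Vemurafenib lowered the transcripts of the glucose carriers SLC2A1 and SLC2A3, the hexokinases HK1 and HK2 and the lactate carriers SLC16A1 and SLC16A3, and raised those of TXNIP, ARRDC4 and the PDK2 and PDK4 kinases. Of the 38 genes that passed the filter on low counts, 19 (50%) fell and 6 (15.8%) rose against DMSO, where 26.3% of the 16740 genes tested fell and 26.4% rose. In the combination 19 genes were lower and 9 higher than in DMSO, against a background of 26.5% lower and 27.1% higher. Tretinoin alone changed 8 genes. In that comparison 5 fell (HK2, TPI1, LDHB, BNIP3 and NDRG1) and 3 rose (PFKFB4, PDK4 and EPAS1), against a background of 2.2% and 3.48%. The count of falls dropped to 1 without DMSO replicate 2 or tretinoin replicate 2, to 2 without DMSO replicate 1 or 3, any 1 vemurafenib sample or combination replicate 2 or 3, and was 4 without tretinoin replicate 1. The remaining gene, the carbonic anhydrase CA9, a strongly hypoxia-responsive enzyme, had 1 to 10 raw counts per sample and was not tested. ARHGEF39 overlaps 38.5% of the CA9 exon bases.

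**Figure D1:**
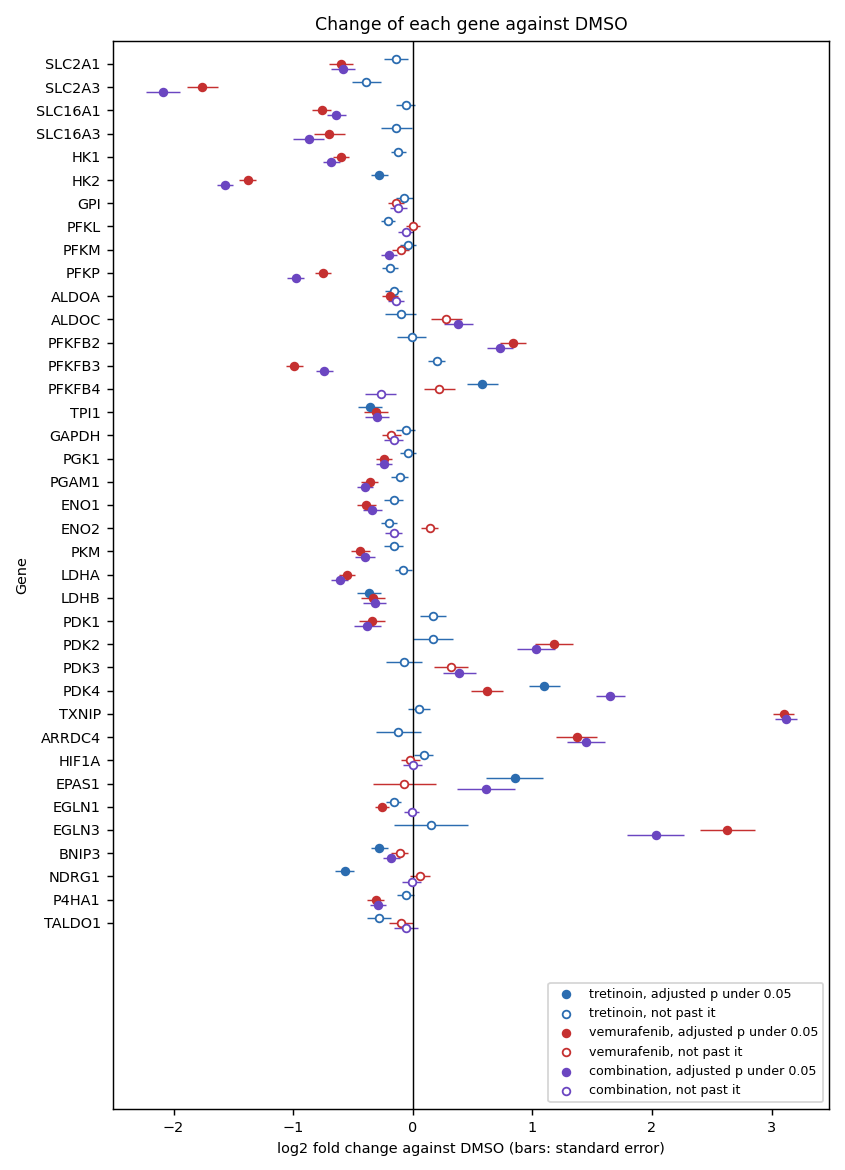
Log2 fold change (horizontal axis) of each of the 38 tested genes (vertical axis) against DMSO for tretinoin, vemurafenib and the combination, with standard errors as bars. Filled points passed an adjusted p of 0.05 in edgeR's quasi-likelihood test and open points did not. TXNIP lies at 3.10 with vemurafenib and 3.12 with the combination, and SLC2A3 at -1.76 and -2.09.

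The median log2 fold change of the 38 genes was -0.19 with vemurafenib, beside 0.02 for all genes tested, and -0.19 with the combination, beside 0.03. It was -0.10 with tretinoin, beside 0.01. Non-overlap between groups was common over all genes tested. With vemurafenib 6 members lay wholly above and 23 wholly below DMSO, where 30.9% of all genes lay above and 30.9% below. With the combination 9 lay above and 20 below, beside 30.9% and 30.5%. With tretinoin 3 lay above and 14 below, beside 11.3% and 12.9%. Together the 39 genes held 2.01% ± 0.0507 (SD, n = 3) of all counts in DMSO, 1.90% ± 0.0207 in tretinoin, 1.83% ± 0.02 in vemurafenib and 1.81% ± 0.0920 in the combination. The numbers of higher and lower calls depended on scaling. With samples scaled by their total counts alone, the median of all genes shifted by 0.19 in the vemurafenib comparison and by 0.16 in the combination comparison, and the split became 12 higher and 12 lower for vemurafenib, 10 higher and 12 lower for the combination, and 4 higher and 2 lower for tretinoin. Under that scaling 39.3% of all genes were higher and 15.7% lower with vemurafenib, 37.3% and 17.4% with the combination, and 4.53% and 1.04% with tretinoin. The difference between the members' median and that of all genes was -0.21 under the main scaling and -0.20 under total counts for vemurafenib. The 12 genes lower under both scalings with vemurafenib were SLC2A1, SLC2A3, SLC16A1, SLC16A3, HK1, HK2, PFKP, PFKFB3, PGAM1, ENO1, PKM and LDHA.

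**Figure D2:**
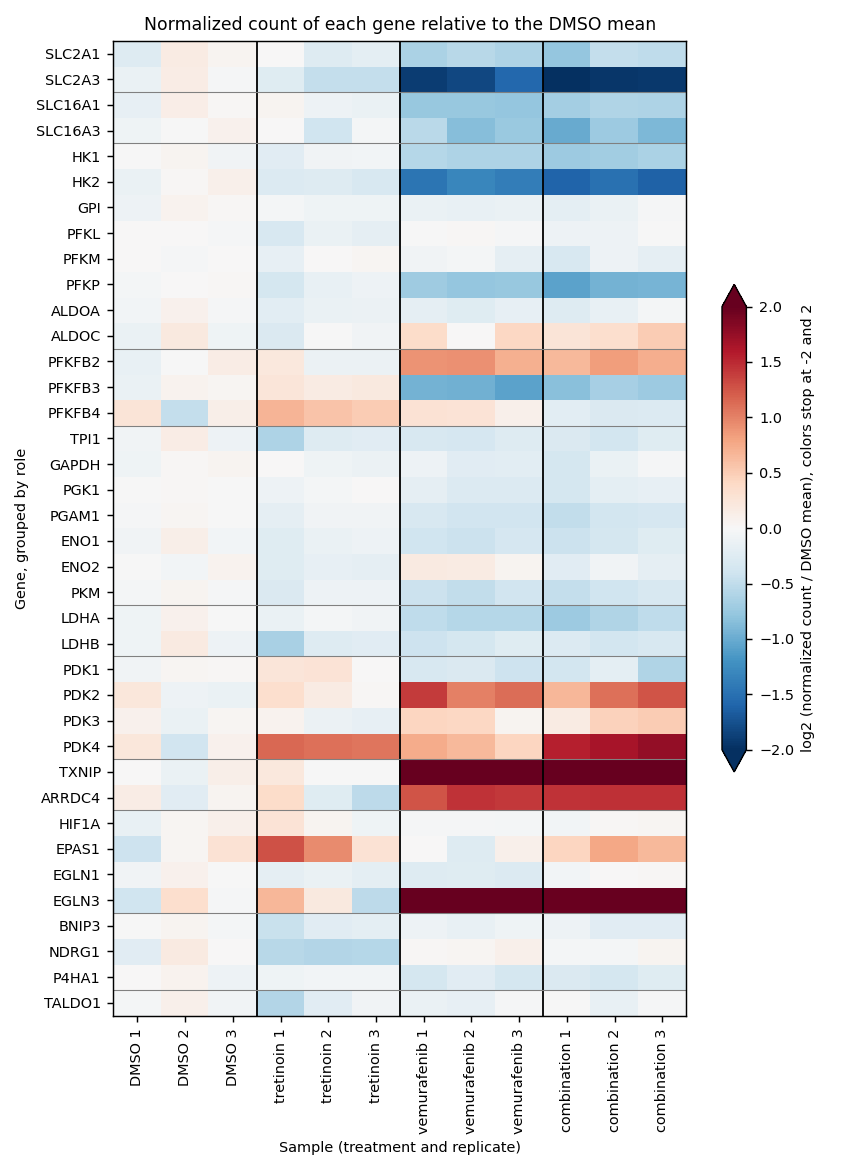
Normalized count of each tested gene (rows, in order of role) in each of the 12 samples (columns), as log2 of the ratio to the DMSO mean; colors stop at -2 and 2. The 3 vemurafenib and 3 combination samples are alike in TXNIP, ARRDC4, EGLN3, HK2 and SLC2A3, while tretinoin replicate 1 is the lowest sample for TPI1, LDHB and TALDO1.

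TXNIP (ENSG00000265972.5), an alpha-arrestin that promotes the removal of glucose transporters from the cell surface and that binds thioredoxin, rose more with vemurafenib than any other member. Its normalized counts were 267, 244 and 291 in DMSO, 308, 265 and 265 in tretinoin, 2313, 2362 and 2207 in vemurafenib and 2172, 2341 and 2477 in the combination. The 6 samples with vemurafenib lay far above the 6 without it, and DMSO and tretinoin overlapped. The fold change was 8.55 with vemurafenib (log2 3.10, SE 0.09, adjusted p = 1.3e-14), and the combination gave 8.69 (log2 3.12, SE 0.09, adjusted p = 9.2e-15). Tretinoin gave a log2 fold change of 0.05 (SE 0.09, adjusted p = 0.78), and the interaction of the drugs was -0.03 (SE 0.12, adjusted p = 0.93).

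ARRDC4 (ENSG00000140450.8), the closest relative of TXNIP among the members and likewise known as a brake on glucose uptake, had 74.9, 58.0 and 70.8 normalized counts in DMSO. It had 87.9, 57.2 and 47.0 in tretinoin, 163, 185 and 180 in vemurafenib and 185, 187 and 186 in the combination. Again every sample with vemurafenib lay above every sample without it. Vemurafenib gave a log2 fold change of 1.37 (SE 0.17, adjusted p = 2.3e-06), and the combination 1.45 (SE 0.16, adjusted p = 9.5e-07). Both arrestins are known targets of the glucose-sensing factors MondoA and MLX. In a list of 7 further genes of this system (MondoA, its relative, MLX, thioredoxin and other arrestins), 6 were tested. The combination raised 1 and lowered 2, against a background of 27.1% and 26.5% of all genes. Vemurafenib raised 2 and lowered 2, against a background of 26.4% and 26.3%. ARRDC3 rose (log2 1.31, SE 0.09, adjusted p = 2.1e-09), as did ARRDC1 (0.31, SE 0.10, adjusted p = 0.019), while MLX fell (log2 -0.94, SE 0.07, adjusted p = 1.2e-08), as did thioredoxin itself, TXN (-0.35, SE 0.09, adjusted p = 0.0037).

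Promoter windows from RefSeq (GRCh38.p14, 250 bases before to 50 bases after a transcript start) were found for 35 of the 39 genes, 65 windows in all. The most upstream window is shown for the 2 arrestins, which rose with vemurafenib, for HK2 and LDHA, classical HIF and MYC targets which fell, and for PDK4, which rose with both drugs. Capitals mark ACGTG and GCGTG, the core letters bound by HIF, on either strand, so that a match on the opposite strand reads CACGT or CACGC. TXNIP lies at chr1:145996530-145996829 (minus strand), ARRDC4 at chr15:97960453-97960752 (plus), HK2 at chr2:74833877-74834176 (plus), LDHA at chr11:18394313-18394612 (plus) and PDK4 at chr7:95596467-95596766 (minus).
TXNIP: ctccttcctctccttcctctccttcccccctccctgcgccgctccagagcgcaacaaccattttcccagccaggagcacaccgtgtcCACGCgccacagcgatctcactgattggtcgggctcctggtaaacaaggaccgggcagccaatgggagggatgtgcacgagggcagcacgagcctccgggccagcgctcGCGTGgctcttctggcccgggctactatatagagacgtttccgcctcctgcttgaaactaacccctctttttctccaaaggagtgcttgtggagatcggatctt
ARRDC4: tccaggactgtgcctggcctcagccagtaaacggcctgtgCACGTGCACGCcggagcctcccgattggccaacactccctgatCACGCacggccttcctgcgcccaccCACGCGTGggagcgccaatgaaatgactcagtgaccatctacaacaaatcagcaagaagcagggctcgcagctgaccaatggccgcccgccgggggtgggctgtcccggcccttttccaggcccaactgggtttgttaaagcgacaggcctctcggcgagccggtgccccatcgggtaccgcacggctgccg
HK2: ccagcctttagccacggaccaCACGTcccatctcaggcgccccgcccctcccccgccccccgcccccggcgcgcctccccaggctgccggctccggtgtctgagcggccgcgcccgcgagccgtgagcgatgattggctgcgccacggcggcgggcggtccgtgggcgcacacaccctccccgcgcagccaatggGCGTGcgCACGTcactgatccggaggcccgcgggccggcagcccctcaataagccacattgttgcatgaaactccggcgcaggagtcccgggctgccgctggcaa
LDHA: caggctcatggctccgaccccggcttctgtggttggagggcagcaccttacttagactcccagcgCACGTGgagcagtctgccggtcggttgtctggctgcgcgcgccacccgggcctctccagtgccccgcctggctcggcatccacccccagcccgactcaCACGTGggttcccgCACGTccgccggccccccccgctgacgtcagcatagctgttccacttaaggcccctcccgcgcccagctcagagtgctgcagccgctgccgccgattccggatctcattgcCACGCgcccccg
PDK4: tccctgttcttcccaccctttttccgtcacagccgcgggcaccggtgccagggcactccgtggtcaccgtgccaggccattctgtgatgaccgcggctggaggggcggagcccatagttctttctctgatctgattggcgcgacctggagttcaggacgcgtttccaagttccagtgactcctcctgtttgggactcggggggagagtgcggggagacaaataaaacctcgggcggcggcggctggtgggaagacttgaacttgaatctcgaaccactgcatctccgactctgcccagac

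The TXNIP window held 2 matches of GCGTG and 0 of ACGTG, the ARRDC4 window 4 and 2, the HK2 window 1 and 2, the LDHA window 1 and 5, and the PDK4 window 0 of either. Over all members, 26 of 65 windows (40.0%) held ACGTG, beside 21.4% of 35116 windows of all genes, and 26 (40.0%) held GCGTG, beside 36.5%. The E-box CACGTG, which the MYC and MondoA families bind and which contains ACGTG on both strands, was in 9 windows (13.8%), beside 7.26%. Windows not shown differed from those shown: a further TXNIP window held ACGTG, and a further HK2 window held the E-box. The longer carbohydrate response element consensus was in 0 of 65 windows and in 0.0883% of all. Only exact matches of that consensus were counted, so a near match such as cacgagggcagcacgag in the TXNIP window was not. The members' windows had a median G+C content of 68.0%, beside 58.7% for all windows, and several windows belonged to the same gene. These matches describe letters only, a missing match says only that these letters are not in the window, and binding was not measured.

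Both member glucose carriers fell with vemurafenib. SLC2A3 (ENSG00000059804.15), the high-affinity carrier GLUT3, had 466, 566 and 504 normalized counts in DMSO, 435, 368 and 367 in tretinoin, 137, 145 and 173 in vemurafenib and 89.6, 133 and 134 in the combination. The vemurafenib and DMSO samples did not overlap, and 30.9% of all genes likewise lay wholly below DMSO with vemurafenib. The SLC2A3 level with vemurafenib was 0.296 of that in DMSO (log2 -1.76, SE 0.13, adjusted p = 7.7e-09). The combination gave a log2 fold change of -2.09 (SE 0.14, adjusted p = 9.8e-10), and its difference from vemurafenib alone, -0.33 (SE 0.15), did not pass the test (adjusted p = 0.31). SLC2A14, a near-identical copy sharing up to 1114 bases, held 1.18 to 5.0% of the SLC2A3 count. Reads that fit both genes could not be assigned with certainty, and the counts do not show how many there were.

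SLC2A1, the widely expressed carrier GLUT1, had 6974, 9332 and 8678 normalized counts in DMSO, 8402, 6991 and 7257 in tretinoin, 5353, 5645 and 5436 in vemurafenib and 4848, 5983 and 5865 in the combination. With vemurafenib it fell by 0.60 on the log2 scale (SE 0.10, adjusted p = 0.0001), and in the combination it fell by 0.58 (SE 0.10, adjusted p = 0.00014). Scaled for exon length, SLC2A1 supplied 95.5% ± 0.312 (SD, n = 3) of the summed level of the pair in DMSO and 97.9% ± 0.263 in vemurafenib. Other hexose, lactate and pyruvate carriers moved both ways. Of 16 such genes 11 were tested, and vemurafenib raised 5 and lowered 3, the combination 5 and 2. Over all genes, 26.4% were higher and 26.3% lower with vemurafenib, and 27.1% and 26.5% with the combination. The rises were led by SLC2A12 (log2 2.70, SE 0.59, adjusted p = 0.00088), SLC2A9 (2.11, SE 0.66, adjusted p = 0.013) and SLC2A10 (1.57, SE 0.22, adjusted p = 9.8e-06). SLC2A12 and SLC2A9 each started from 1.15 to 2.83 normalized counts in DMSO, and SLC2A9 had 3.72 to 11.2 with vemurafenib. The falls were SLC2A14 (-2.36, SE 0.46, adjusted p = 0.00032), SLC16A7, a monocarboxylate carrier (-0.62, SE 0.09, adjusted p = 2.8e-05), and SLC2A13 (-0.36, SE 0.13, adjusted p = 0.028). SLC2A14, the near-identical copy of SLC2A3, had only 13.8 to 20.5 normalized counts in DMSO and 1.72 to 5.37 with vemurafenib.

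Of the lactate carriers, SLC16A1 (MCT1) had 4658, 5735 and 5323 normalized counts in DMSO, 5434, 4908 and 4764 in tretinoin, 3113, 3084 and 3063 in vemurafenib and 3268, 3435 and 3401 in the combination. SLC16A3 (MCT4), the carrier typical of glycolytic cells, was far less abundant, with 187 to 210 in DMSO, 151 to 198 in tretinoin, 110 to 137 in vemurafenib and 98.4 to 120 in the combination. Neither carrier's vemurafenib samples overlapped with DMSO, where 30.9% of all genes lay wholly below DMSO. SLC16A1 fell by 0.76 (SE 0.08, adjusted p = 2.4e-07) and SLC16A3 by 0.70 (SE 0.13, adjusted p = 0.00024) on the log2 scale. Other annotated genes overlap 6.0% of the SLC16A3 exon bases. Among them CSNK1D held 1030 to 2290% of the SLC16A3 count, and its part in the SLC16A3 result was not tested.

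HK2 (ENSG00000159399.9), the inducible hexokinase of growing and tumor cells, fell more with vemurafenib than every other member but SLC2A3. Its normalized counts were 1945, 2164 and 2281 in DMSO, 1770, 1782 and 1706 in tretinoin, 777, 859 and 818 in vemurafenib and 701, 760 and 697 in the combination. The tretinoin samples all lay between the DMSO and the vemurafenib samples. Against DMSO, tretinoin gave a log2 fold change of -0.28 (SE 0.07, adjusted p = 0.026), vemurafenib -1.38 (SE 0.07, adjusted p = 6.3e-11) and the combination -1.57 (SE 0.07, adjusted p = 1.1e-11). The tretinoin call was lost without DMSO replicate 2 or 3 or without tretinoin replicate 2 or 3 (-0.34 to -0.23 over all samples left out in turn), and with total counts alone or only the groups compared. HK1, the constitutive hexokinase, fell less, from 3523 to 3847 in DMSO to 2410 to 2482 in vemurafenib (log2 -0.60, SE 0.07, adjusted p = 6.2e-07). Scaled for length, HK2 made up 37.5% ± 2.46 (SD, n = 3) of the hexokinase level in DMSO, 34.9% ± 1.73 in tretinoin, 25.9% ± 1.24 in vemurafenib and 24.5% ± 1.12 in the combination, while the summed level went from 52.4 ± 1.74 to 29.2 ± 0.206 TMM-scaled CPM per kilobase of exon in DMSO and vemurafenib.

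**Figure D3:**
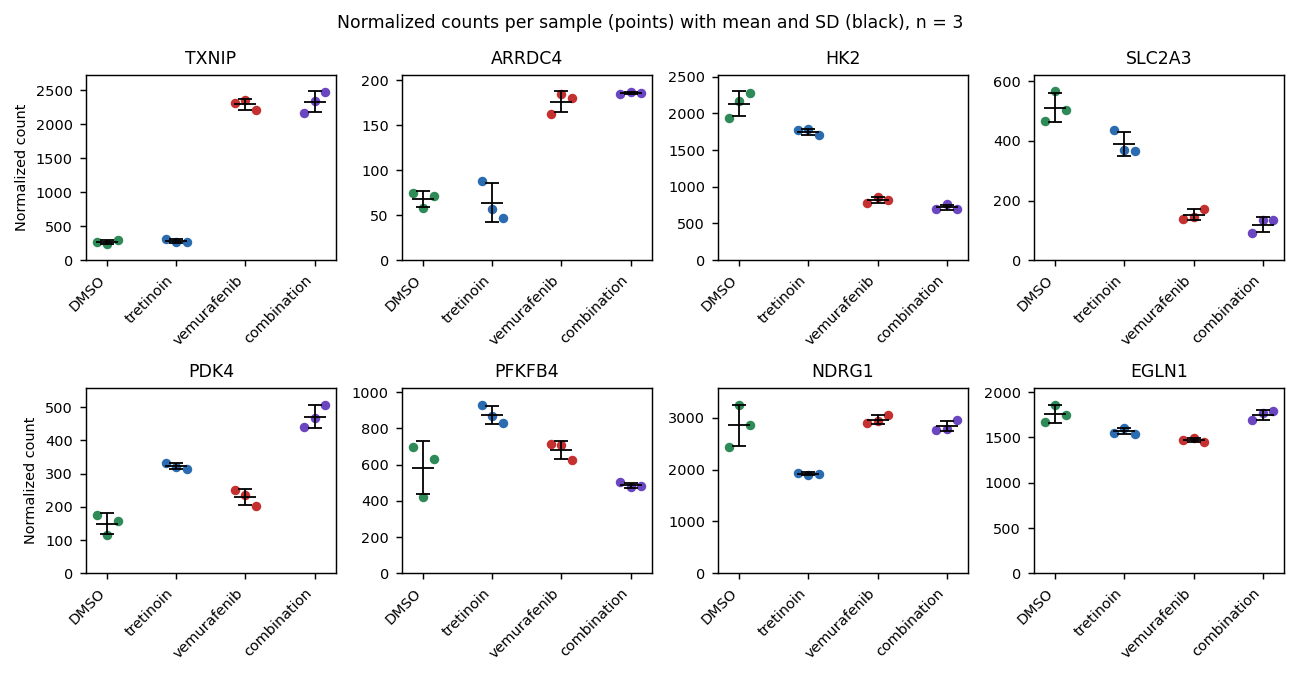
Normalized counts (vertical axes, starting at 0) of 8 genes in the 4 treatment groups; colored points are samples and black marks the mean with SD, n = 3. TXNIP and ARRDC4 are higher and HK2 and SLC2A3 lower in all samples with vemurafenib, PDK4 is highest in the combination (439 to 507), and PFKFB4 is highest with tretinoin alone (832 to 931).

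Among the 3 phosphofructokinases, PFKP, the platelet-type subunit, was the only gene to pass the test with vemurafenib, and it fell from 3334, 3443 and 3468 normalized counts in DMSO to 2076, 2005 and 2023 (log2 -0.75, SE 0.07, adjusted p = 1.3e-07), and stood at 1622, 1767 and 1800 in the combination (-0.98, SE 0.07, adjusted p = 4.1e-09). PFKL, the liver-type subunit, was at 1541 to 1589 in DMSO and 1546 to 1599 in vemurafenib (adjusted p = 0.96), and PFKM, the muscle-type subunit, at 1881 to 1926 and 1690 to 1856 (adjusted p = 0.29). With total counts alone PFKL passed the test as higher. PFKM passed it in the combination (-0.20, SE 0.07, adjusted p = 0.028), a call lost without any 1 of the 3 DMSO samples or without combination replicate 1 or 3 (-0.26 to -0.15). Part of PFKM (8.6% of its exon bases) overlaps SENP1. The share of PFKP in the phosphofructokinase level dropped from 61.8% ± 0.624 (SD, n = 3) in DMSO to 50.1% ± 1.01 in vemurafenib and 47.5% ± 0.330 in the combination.

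The other upper glycolytic enzymes changed little. GPI, which converts glucose phosphate to fructose phosphate, was at 7083 to 7942 normalized counts in DMSO and 6816 to 6924 in vemurafenib (log2 -0.14, SE 0.07, adjusted p = 0.092). ALDOA, the main aldolase, had a log2 fold change of -0.19 (SE 0.07, adjusted p = 0.036) with vemurafenib, a call lost without DMSO replicate 2 or 3 or without any 1 vemurafenib sample (-0.23 to -0.15), and with a minimum of 10 counts in every sample. With total counts alone the call was also lost and the ALDOA value was 0.00. Other annotated genes overlap 53.5% of the ALDOA exon bases, so its counts are uncertain. ALDOC, the brain-type aldolase, rose in the combination (0.38, SE 0.12, adjusted p = 0.016), a call lost without DMSO replicate 1 or 3 or combination replicate 3 (0.30 to 0.48).

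The 3 PFKFB enzymes make and remove the fructose bisphosphate that activates phosphofructokinase, and each followed its own pattern. PFKFB3, the form with the strongest kinase activity, fell from 1420, 1632 and 1599 normalized counts in DMSO to 806, 801 and 736 with vemurafenib (log2 -0.99, SE 0.07, adjusted p = 5.3e-09). It stood at 1833, 1734 and 1767 with tretinoin (0.20, SE 0.07, adjusted p = 0.11) and at 871, 981 and 935 in the combination (-0.74, SE 0.07, adjusted p = 1.7e-07). PFKFB2, the heart-type form, rose from 194, 213 and 237 to 400, 404 and 350 with vemurafenib (0.84, SE 0.11, adjusted p = 5.7e-06) and to 335, 381 and 354 in the combination (0.73, SE 0.11, adjusted p = 2.6e-05). YOD1 overlaps 3.1% of the PFKFB2 exon bases and held 62.2 to 176% of the PFKFB2 count. YOD1 did not pass the test with vemurafenib (-0.24, adjusted p = 0.055) and fell in the combination (-0.53, adjusted p = 0.00023). Its part in the PFKFB2 result was not tested.

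PFKFB4 (ENSG00000114268.11), a hypoxia-inducible form, responded to tretinoin in opposite ways depending on vemurafenib. Its normalized counts were 696, 419 and 633 in DMSO, 931, 866 and 832 in tretinoin, 713, 707 and 625 in vemurafenib and 503, 475 and 482 in the combination. All 3 tretinoin samples lay above DMSO, while all 3 combination samples lay below vemurafenib. Over all genes, 11.3% lay wholly above DMSO with tretinoin, and 12.5% lay wholly below vemurafenib in the combination. Tretinoin gave a log2 fold change of 0.58 (SE 0.13, adjusted p = 0.011) without vemurafenib and of -0.49 (SE 0.13, adjusted p = 0.032) with it, and the interaction of the drugs was -1.07 (SE 0.18, adjusted p = 0.0067). The interaction remained past the threshold in all 18 alternatives, with values of -1.22 to -0.89 when each sample was left out. The rise with tretinoin alone was lost with only the groups compared. The fall on top of vemurafenib was lost without vemurafenib replicate 1 or 2 or without any 1 combination sample (-0.55 to -0.46). UCN2 overlaps 4.7% of the PFKFB4 exon bases, and its own counts were 81.0 to 149 in DMSO, 222 to 274 in tretinoin, 8.61 to 15 in vemurafenib and 11.6 to 17.0 in the combination. Its interaction was -0.79 (adjusted p = 0.37), and its part in the PFKFB4 result was not tested.

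In lower glycolysis 5 of 7 enzymes fell by small amounts with vemurafenib, and the same 5 fell in the combination. Over all genes, 26.3% were lower with vemurafenib and 26.5% with the combination. PKM, the pyruvate kinase of tumor cells, was at 75155, 80605 and 76097 normalized counts in DMSO, 63520, 72086 and 71801 in tretinoin, 57080, 54832 and 59075 in vemurafenib and 55370, 58625 and 61595 in the combination. Its log2 fold change with vemurafenib was -0.44 (SE 0.08, adjusted p = 0.00013). ENO1, the main enolase, had -0.39 (SE 0.08, adjusted p = 0.00056) and PGAM1, the phosphoglycerate mutase, -0.36 (SE 0.07, adjusted p = 0.00025). PGAM1 has 3 near-identical copies, which together held 30.8 to 38.4% of its count, so its reads could have been split. PGK1 (-0.24, SE 0.07, adjusted p = 0.0062) and TPI1 (-0.31, SE 0.10, adjusted p = 0.012) lost their calls with total counts alone, and TPI1 also without DMSO replicate 2. In the combination both also lost their calls with total counts alone, and TPI1 without DMSO replicate 2 or combination replicate 2. With tretinoin TPI1 was at 16412, 20992 and 21500, beside 24058, 28009 and 23428 in DMSO (-0.36, SE 0.10, adjusted p = 0.036), a call lost without DMSO replicate 1 or 2, tretinoin replicate 2, any 1 vemurafenib sample or combination replicate 2 or 3 (-0.43 to -0.25).

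GAPDH, often used as a reference gene, had 46060, 49656 and 50370 normalized counts in DMSO and 45381, 41651 and 42001 in vemurafenib, a log2 fold change of -0.18 (SE 0.08) that did not pass the test (adjusted p = 0.085). ENO2, the neuronal enolase, was at 604 to 655 in DMSO, 530 to 560 in tretinoin, 654 to 709 in vemurafenib and 534 to 594 in the combination. It fell when tretinoin was added to vemurafenib (-0.30, SE 0.07, adjusted p = 0.022), a call lost without vemurafenib replicate 1 or 2 or combination replicate 1 or 3 (-0.34 to -0.26).

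LDHA, the dehydrogenase subunit that favors lactate formation, had 21239, 23923 and 22439 normalized counts in DMSO, 20521, 21921 and 21471 in tretinoin, 15859, 15152 and 15257 in vemurafenib and 13550, 14814 and 15791 in the combination. The samples with vemurafenib did not overlap those without it, and vemurafenib gave LDHA a log2 fold change of -0.55 (SE 0.07, adjusted p = 8e-06), the combination -0.61 (SE 0.07, adjusted p = 2e-06). LDHB, the subunit that favors the reverse reaction, had 22110, 26486 and 21845 in DMSO, 14977, 19652 and 20029 in tretinoin, 17615, 18476 and 19922 in vemurafenib and 19490, 18222 and 18865 in the combination. Its fall with vemurafenib (-0.33, SE 0.10, adjusted p = 0.012) was lost without DMSO replicate 2 or vemurafenib replicate 1, and with total counts alone. Its fall with tretinoin (-0.37, SE 0.10, adjusted p = 0.044) was lost without any 1 sample except tretinoin replicate 3 (-0.44 to -0.24). Another annotated gene overlaps 33.4% of the LDHB exon bases. Scaled for length, LDHB supplied 68.4% ± 1.39 (SD, n = 3) of the summed level in DMSO and 71.6% ± 1.66 in vemurafenib, with ranges of 67.0 to 69.7% and 69.8 to 73.1%.

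The pyruvate dehydrogenase kinases shifted in make-up. PDK4 (ENSG00000004799.7), the form induced by fasting and by several nuclear receptors, had 176, 115 and 159 normalized counts in DMSO, 333, 321 and 315 in tretinoin, 252, 236 and 203 in vemurafenib and 439, 468 and 507 in the combination. The 4 groups did not overlap, and the order was DMSO, vemurafenib, tretinoin, combination. Tretinoin raised PDK4 2.15-fold without vemurafenib (log2 1.1, SE 0.13, adjusted p = 4e-05) and 2.04-fold on top of it (1.03, SE 0.12, adjusted p = 1.8e-05). Vemurafenib alone gave a log2 fold change of 0.62 (SE 0.13, adjusted p = 0.00076) and the combination 1.65 (SE 0.12, adjusted p = 6e-09). The interaction was -0.07 (SE 0.17, adjusted p = 0.88).

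PDK2, the most widely expressed form in many tissues, rose from 131, 104 and 102 normalized counts in DMSO to 294, 225 and 242 with vemurafenib (log2 1.18, SE 0.16, adjusted p = 8.8e-06). It had 142, 125 and 114 in tretinoin and 177, 240 and 267 in the combination. SAMD14 overlaps 38.6% of the PDK2 exon bases and rose as well (1.31, adjusted p = 0.0023), from 9.44 to 25.4 in DMSO to 41.8 to 44.8 with vemurafenib. Whether the overlap raised or lowered the PDK2 values was not tested. PDK1, the HIF-responsive form, fell with vemurafenib (-0.34, SE 0.11, adjusted p = 0.017), from 242 to 262 in DMSO to 190 to 207, a call lost without vemurafenib replicate 3 and with total counts alone. PDK3 did not pass the test with vemurafenib (0.32, SE 0.14, adjusted p = 0.067) and rose in the combination (0.39, SE 0.14, adjusted p = 0.025), a call lost without DMSO replicate 2 or 3 or combination replicate 2 or 3 (0.32 to 0.48) and with DESeq2.

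Scaled for length, PDK4 made up 35.2% ± 3.90 (SD, n = 3) of the kinase level in DMSO, 52.8% ± 1.67 in tretinoin, 36.7% ± 1.13 in vemurafenib and 55.3% ± 2.16 in the combination. The summed kinase level was 5.23 ± 0.582 TMM-scaled CPM per kilobase of exon in DMSO. It was 7.59 ± 0.443 in tretinoin, 7.77 ± 0.795 in vemurafenib and 10.6 ± 1.04 in the combination. PDK2 held 21.9% ± 1.93 in DMSO, 17.0% ± 0.896 in tretinoin, 33.3% ± 3 in vemurafenib and 21.9% ± 2.4 in the combination. Of the 8 genes of the pyruvate dehydrogenase complex and its phosphatases, vemurafenib lowered 4 and raised 1, as did the combination. The background over all genes was 26.3% lower and 26.4% higher with vemurafenib, and 26.5% and 27.1% with the combination. The deepest falls were PDP2 (log2 -1.19, SE 0.09, adjusted p = 9.2e-09) and PDP1 (-1.16, SE 0.09, adjusted p = 4.9e-09), the phosphatases that switch pyruvate dehydrogenase back on. PDP1 went from 2093 to 2303 normalized counts in DMSO to 921 to 1049 with vemurafenib and 691 to 819 in the combination. DLAT, a core subunit, fell by 0.29 (SE 0.07, adjusted p = 0.0017), and DLD, a subunit shared with other dehydrogenases, rose by 0.29 (SE 0.06, adjusted p = 0.00075).

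**Figure D4:**
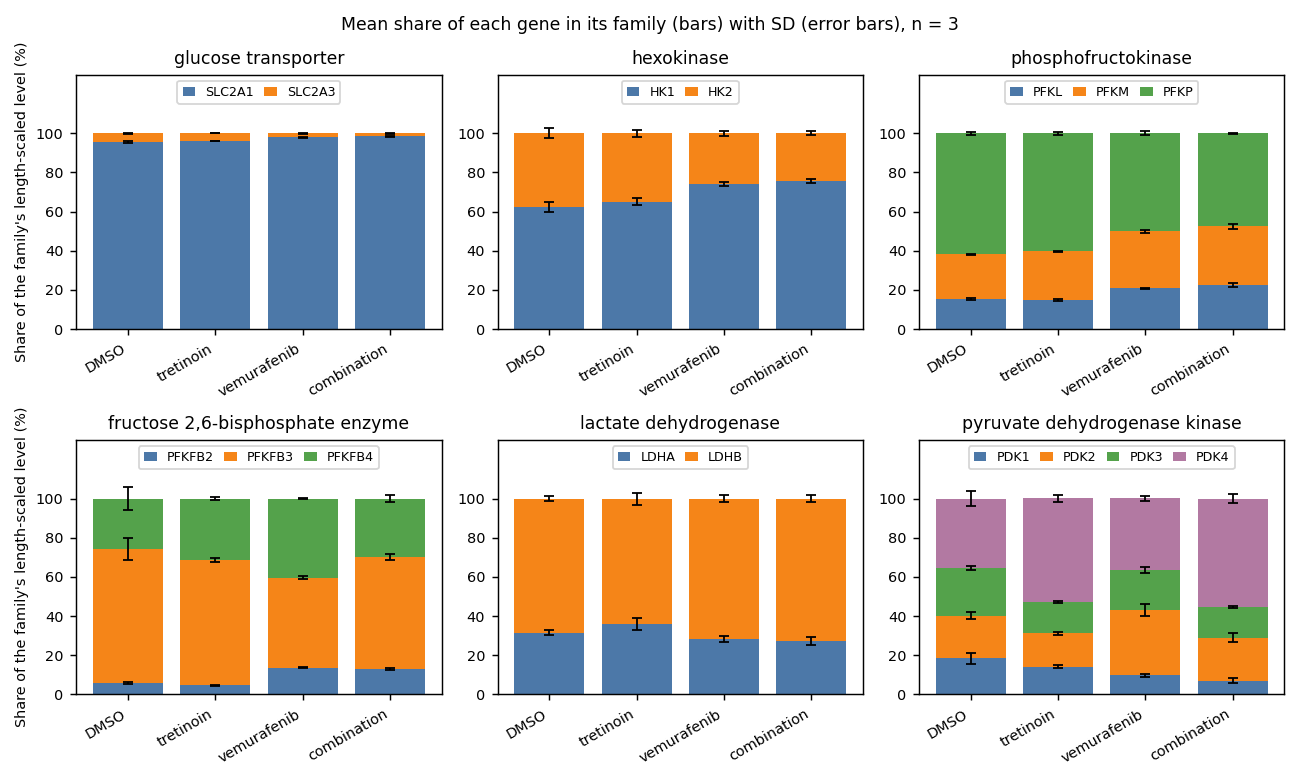
Share (vertical axis, percent) of each gene in the length-scaled level of its family in the 4 treatment groups; stacked bars are means and error bars SD, n = 3. PDK4 takes 35.2% of its family in DMSO and 55.3% in the combination, HK2 goes from 37.5% to 24.5% and PFKP from 61.8% to 47.5%.

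HIF1A, the HIF-1 alpha subunit, did not pass the test in any of the 6 comparisons. It had 2985, 3400 and 3527 normalized counts in DMSO and 3260, 3264 and 3221 in vemurafenib, a log2 fold change of -0.02 (SE 0.08, adjusted p = 0.82). HIF activity is set largely through protein stability, which transcript counts do not measure. EPAS1, which encodes HIF-2 alpha, was at 30, 41.1 and 49.1 in DMSO and 97.0, 76.9 and 49.0 in tretinoin, and the groups overlapped. Its rise with tretinoin (0.85, SE 0.24, adjusted p = 0.048) was lost without DMSO replicate 1 or 2, tretinoin replicate 1 or 2, any 1 vemurafenib sample or any 1 combination sample (0.63 to 1.09), with only the groups compared and with the replicate block. Its rise with the combination (0.61, SE 0.24, adjusted p = 0.042) was lost without DMSO replicate 1 or 2, vemurafenib replicate 1 or combination replicate 2 or 3 (0.44 to 0.79), and with DESeq2 or the replicate block.

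The prolyl hydroxylases went different ways. EGLN3, itself hypoxia-inducible, rose from 13.8, 23.0 and 17.9 normalized counts in DMSO to 99.4, 114 and 127 with vemurafenib (log2 2.63, SE 0.23, adjusted p = 4.2e-08). It stood at 28.9, 20.8 and 12.7 in tretinoin and at 71.9, 74.0 and 77.7 in the combination (2.03, SE 0.24, adjusted p = 1.6e-06). All combination samples lay below all vemurafenib samples, but the difference of -0.60 (SE 0.18) did not pass the test (adjusted p = 0.068). EGLN1, the main oxygen sensor of most cells, had 1669, 1860 and 1743 in DMSO, 1553, 1608 and 1542 in tretinoin, 1467, 1492 and 1451 in vemurafenib and 1687, 1772 and 1791 in the combination. It fell with vemurafenib (-0.26, SE 0.06, adjusted p = 0.0023), except under total counts alone, and was higher in the combination than in vemurafenib (0.25, SE 0.06, adjusted p = 0.023). The latter call was lost without any 1 vemurafenib sample or without combination replicate 2 or 3 (0.23 to 0.28).

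NDRG1 (ENSG00000104419.14), a stress and hypoxia-responsive gene, fell with tretinoin alone. It had 2444, 3242 and 2864 normalized counts in DMSO, 1943, 1894 and 1919 in tretinoin, 2897, 2933 and 3053 in vemurafenib and 2768, 2788 and 2957 in the combination. The tretinoin samples lay below all 9 others. Tretinoin alone gave a log2 fold change of -0.57 (SE 0.08, adjusted p = 0.00033), against -0.06 (SE 0.08, adjusted p = 0.84) when it was added to vemurafenib. BNIP3, a mitophagy receptor, had 1322 to 1411 in DMSO and 997 to 1189 in tretinoin (-0.28, SE 0.07, adjusted p = 0.033), a call lost without any 1 DMSO or vemurafenib sample, tretinoin replicate 1 or 2 or combination replicate 2 or 3 (-0.33 to -0.21). A near-identical copy, BNIP3P1, held 2.14 to 5.92% of the BNIP3 count. P4HA1, a collagen prolyl hydroxylase, went from 778 to 876 in DMSO to 650 to 712 with vemurafenib (-0.31, SE 0.07, adjusted p = 0.0016), a call lost with total counts alone.

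Of 21 other hypoxia targets, vemurafenib lowered 7 and raised 5, and the combination lowered 7 and raised 8. The background over all genes was 26.3% lower and 26.4% higher with vemurafenib, and 26.5% and 27.1% with the combination. ANGPTL4, a secreted inhibitor of lipoprotein lipase, had 288, 337 and 345 normalized counts in DMSO, 1031, 1274 and 1244 in tretinoin, 5.57, 18.1 and 21.5 in vemurafenib and 40.4, 73.1 and 59.9 in the combination (log2 -4.43 with vemurafenib, SE 0.24, adjusted p = 1e-10). The peptide hormone gene ADM (-1.72, SE 0.10, adjusted p = 3.6e-10) and the secreted STC2 (-1.11, SE 0.11, adjusted p = 1.5e-07) also fell. The rises were led by the histone demethylases KDM4B (0.69, SE 0.08, adjusted p = 6e-07) and KDM3A (0.57, SE 0.08, adjusted p = 1.7e-05) and by INSIG2, a regulator of sterol synthesis (0.51, SE 0.11, adjusted p = 0.0011). Of 9 other oxygen-sensing genes tested out of 10, ARNT, the partner of the HIF alpha subunits, rose (0.82, SE 0.10, adjusted p = 3.5e-06), while ELOC, a subunit of the ubiquitin ligase that destroys HIF (-0.68, SE 0.09, adjusted p = 4.5e-06), and ARNT2 (-0.38, SE 0.11, adjusted p = 0.0067) fell with vemurafenib.

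TALDO1, the transaldolase of the pentose phosphate pathway, did not pass the test in any of the 6 comparisons, with 2526 to 2853 normalized counts in DMSO and 1764 to 2535 in tretinoin, where replicate 1 was the lowest. Among 10 other pentose phosphate genes, 9 were tested. The combination lowered 4 and raised 3, against a background of 26.5% and 27.1% of all genes. Vemurafenib lowered 4 and raised 1, against a background of 26.3% and 26.4%. PRPS2 (log2 -1.01, SE 0.06, adjusted p = 3.6e-10) and PRPS1 (-0.70, SE 0.07, adjusted p = 2.4e-07), which make the activated ribose of nucleotides, fell, as did RPIA, which makes ribose phosphate (-0.98, SE 0.09, adjusted p = 1.4e-07). H6PD, the glucose phosphate dehydrogenase of the endoplasmic reticulum, rose (1.12, SE 0.09, adjusted p = 1.1e-08).

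The drugs could be compared with and without each other. Vemurafenib changed 25 members without tretinoin and 25 with it, the latter being 10 higher and 15 lower in the combination than in tretinoin against a background of 24.1% and 25.0%. Of these, 20 were called in the same direction in both comparisons and 1, EGLN1, in opposite directions, although its rise against tretinoin was lost in 13 of 19 alternatives. The share of all genes called alike in both comparisons was not counted. Across the 38 genes the log2 fold changes of these 2 comparisons, which share no sample, had a Pearson correlation of 0.95, beside 0.85 across all 16740 genes. Genes are not independent replicates. Tretinoin changed 8 members without vemurafenib and 4 with it (PDK4 and EGLN1 higher, PFKFB4 and ENO2 lower), against a background of 2.27% higher and 2.2% lower. The number of lower calls became 0 without vemurafenib replicate 1 or 2 or combination replicate 1 or 3, where 4 to 6 members had an unadjusted edgeR p under 0.05 and DESeq2 called 3 on all samples. It became 1 without combination replicate 2 and 4 without tretinoin replicate 1, where the lower calls over all genes also went from 369 to 634. PDK4 was called in the same direction in both and PFKFB4 in opposite directions. The log2 fold changes with tretinoin, without and with vemurafenib, had a correlation of 0.52 across the 38 genes, beside 0.26 across all 16740.

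The test of the interaction passed for 3 members, EGLN1 and NDRG1 above additivity and PFKFB4 below it, against a background of 0.382% and 0.424%. For EGLN1 it was 0.42 (SE 0.09, adjusted p = 0.034) and for NDRG1 0.51 (SE 0.12, adjusted p = 0.046). Both calls depended on individual samples. The EGLN1 call was lost without DMSO replicate 2 or 3, tretinoin replicate 2 or 3, any 1 vemurafenib sample or combination replicate 2 or 3 (0.37 to 0.45), and the NDRG1 call without those samples or combination replicate 1 (0.41 to 0.60). Both were also lost with total counts alone and with the replicate block.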

How the data were processed

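RNA from A375 cells had been poly(A)-selected, prepared with a directional kit and sequenced in 12 samples. The authors deposited raw counts per gene, 1 file per sample, made with STAR 2.5.3a on GRCh38.p10 and GENCODE 27 and counted in union mode without regard to strand, so reads of overlapping or antisense genes cannot be told apart. Totals of 13510235 to 21534377 counts set the precision, which is lowest for EGLN3, EPAS1 and ARRDC4.

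Counts were analyzed with edgeR 4.0.16 (R 4.3.3): filterByExpr kept 16740 genes, TMM scaling was applied, and the quasi-likelihood test (glmQLFit, glmQLFTest) was fitted over all 12 samples without a block, with Benjamini-Hochberg adjustment over all genes per comparison and a threshold of 0.05. SE is the log2 fold change divided by the square root of F. Normalized counts are TMM-scaled to the mean library. Levels were compared between genes only after division by exon length (GENCODE 29, 58084 of the 58347 IDs matched). That length merges the exons of all annotated transcripts of a gene, so levels and family shares depend on the annotation. Copies were searched with blastn 2.17.0 (at least 150 shared bases at 98% identity). Alternatives were DESeq2 1.42.0, its size factors, total counts, 2 filters, the groups compared alone, a replicate block and each sample left out. The main test did not treat samples with the same replicate number as pairs.

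The members and lists were chosen with earlier results of these data known. Every member is named; of each further list, up to 3 rises and 3 falls called with vemurafenib are named, along with the genes that check drugs and cell types and those overlapping or copying a member. Which of those list genes are shown with counts was chosen after their values were seen.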

Additional observations from a re-analysis of the deposited data

Results flagged for a closer look

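The effect of tretinoin differed with and without vemurafenib for 3 members, by the interaction term of edgeR's quasi-likelihood test over all 12 samples. The PFKFB4 call was kept in all 18 alternatives, while EGLN1 lost its call in 11 of 18 and NDRG1 in 12 of 18, total counts alone and the replicate block among them. For PFKFB4 the interaction was -1.07 on the log2 scale (SE 0.18, adjusted p = 0.0067), with every tretinoin sample above DMSO and every combination sample below vemurafenib. For EGLN1 it was 0.42 (SE 0.09, adjusted p = 0.034), where tretinoin gave a log2 fold change of -0.16 alone (adjusted p = 0.13) and of 0.25 on top of vemurafenib (adjusted p = 0.023). For NDRG1 it was 0.51 (SE 0.12, adjusted p = 0.046), where the corresponding values were -0.57 (adjusted p = 0.00033) and -0.06 (adjusted p = 0.84).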

How the results depend on the processing

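Across 19 alternatives, the calls kept under every setting were 18 of 25 for vemurafenib against DMSO, 18 of 28 for the combination against DMSO, 20 of 25 for the combination against tretinoin, 2 of 8 for tretinoin against DMSO (PDK4 and NDRG1), 1 of 4 for the combination against vemurafenib (PDK4) and 1 of 3 for the interaction (PFKFB4). With total counts alone, members were 12 higher and 12 lower with vemurafenib, 12 lower with the combination, 2 lower with tretinoin and 0 above additivity, and the ALDOA log2 fold change with vemurafenib turned to 0.00; this scaling shifts the median of all genes. With only the groups compared, tretinoin gave 1 higher and 1 lower, and the combination against vemurafenib 4 higher and 4 lower. With no filter on low counts, the combination against vemurafenib gave 1 higher and 1 lower, and 4 members lay above additivity. Same-numbered samples had a mean correlation of deviations of -0.031 over 18 pairs, beside 0.015 over 36 pairs with different numbers. These values show no shared effect but do not settle whether same-numbered samples were processed together. With the replicate block, tretinoin gave 3 lower, the combination against vemurafenib 1 lower, and 0 members lay above additivity; of all genes, tretinoin gave 429 higher and 219 lower in place of 583 and 368. Leaving out 1 sample gave, for higher and lower calls, 2 to 3 and 1 to 5 with tretinoin, 6 to 7 and 16 to 21 with vemurafenib, 6 to 9 and 16 to 22 with the combination, 1 to 3 and 0 to 4 for the combination against vemurafenib, 8 to 10 and 13 to 17 against tretinoin, and 0 to 2 and 1 to 1 for the interaction. Over all genes, tretinoin gave 234 higher and 71 lower with only its groups, 736 and 804 with no filter, 583 and 659 with DESeq2, and 758 and 174 with total counts; vemurafenib gave 6575 and 2628 and the combination 6242 and 2916 with total counts, in place of 4411 and 4400 and of 4537 and 4440; the combination against vemurafenib gave 584 and 685 with only its groups, in place of 380 and 369; the interaction gave 64 and 71, and 124 and 130 with DESeq2, 36 and 132 with total counts, 389 and 221 with no filter, and 39 and 36 with the block. In the settings with 0 calls, 2 to 6 members above additivity and 4 to 6 lower ones in the combination against vemurafenib had an unadjusted edgeR p under 0.05, and DESeq2 called 2 and 3 on all samples. The cause of these changes was not tested.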

Other observations

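The lists beside the members' own steps are given as counts, to be read against the 26.4% of all genes tested that were higher and the 26.3% that were lower with vemurafenib, and 27.1% and 26.5% with the combination. Of 20 other glycolysis and gluconeogenesis enzymes 9 were tested; vemurafenib raised 4 and lowered 3, the combination 3 and 3. PCK2, the mitochondrial enzyme that makes phosphoenolpyruvate, had 739 to 834 normalized counts in DMSO, 732 to 757 in tretinoin, 1543 to 1609 in vemurafenib and 1781 to 1955 in the combination (log2 1.01 with vemurafenib, SE 0.07, adjusted p = 1.3e-09). ENO3, the muscle enolase, rose by 1.22 (SE 0.15, adjusted p = 2.2e-06) and LDHD, a D-lactate dehydrogenase, by 1.64 (SE 0.58, adjusted p = 0.024) from at most 8.46 normalized counts in DMSO. HKDC1, a further hexokinase, fell by 0.84 (SE 0.16, adjusted p = 0.00025), TIGAR, which removes the activator of phosphofructokinase, by 0.34 (SE 0.07, adjusted p = 0.00083), and ADPGK, an ADP-dependent glucokinase, by 0.30 (SE 0.07, adjusted p = 0.0022).

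Of 14 glycogen genes 13 were tested; vemurafenib raised 3 and lowered 3, the combination 4 and 4, shares near those of all genes. PYGB, the brain-type glycogen phosphorylase, was the most abundant of those that fell, at 20425 to 22711 normalized counts in DMSO, 20210 to 21133 in tretinoin, 11164 to 11289 in vemurafenib and 13212 to 14312 in the combination (log2 -0.92 with vemurafenib, SE 0.07, adjusted p = 4.2e-09). PGM2 (-0.49, SE 0.06, adjusted p = 4e-06) and UGP2 (-0.36, SE 0.07, adjusted p = 0.00055) fell, while the phosphorylase kinase subunits PHKA2 (0.60, SE 0.10, adjusted p = 0.00011) and PHKB (0.45, SE 0.08, adjusted p = 9.6e-05) and the liver-type phosphorylase PYGL (0.42, SE 0.06, adjusted p = 2.2e-05) rose.

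Scaled for exon length, GAPDH was the most abundant member in DMSO at 913 ± 43.3 (SD, n = 3) TMM-scaled CPM per kilobase of exon, followed by ENO1 at 827 ± 57.9, TPI1 at 521 ± 51.4 and PKM at 504 ± 19.0; the last 2 differed by less than their spread. At the other end lay EPAS1 at 0.307 ± 0.0735, EGLN3 at 0.139 ± 0.0347 and CA9, which was not tested, at 0.103 ± 0.0779. Exon length here merges the exons of all annotated transcripts of a gene, so this order depends on the annotation. Without scaling for length, the mean normalized counts in DMSO were 78007 for ENO1, 77286 for PKM and 48695 for GAPDH.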
